A study of Mus musculus with 34 samples.

Results

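The genes described here are 50 mouse genes for proteins of the lysosome, the acidic compartment in which cells break down what they take up. They were chosen by name, with earlier results of these data known. The set holds 12 proteases, 12 glycosidases, 4 sulfatases and sulfamidases, 8 genes of lipid handling, 2 phosphatases, 4 genes of the V-ATPase proton pump and 8 membrane proteins. Each gene was followed through the chromatin regions that carried histone H3 acetylated on lysine 27 (H3K27ac), which is found at promoters and enhancers in use, and that the deposited annotation assigned to it within 100 kb of its transcription start site. In the table of blood and liver cells 48 of the 50 genes had such regions, 373 of 78174, and in the table of cultured macrophages 49 had them, 459 of 87641. No region was named for Arsa in either table, and none for Cln3 in the first. For Arsa this is a matter of annotation, since a region overlapping the gene carries the name of a neighbouring transcript.

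The samples are chromatin immunoprecipitation sequencing (ChIP-seq) libraries, 2 per group. H3K27ac was measured in untreated Ly6C-high blood monocytes of C57BL/6J mice, in repopulating liver macrophages (RLM) of Clec4f-cre/Rosa26iDTR mice 24 h after diphtheria toxin, and in untreated Kupffer cells (KC), the macrophages that live in the liver sinusoids. The sample labels give the Kupffer cell donors as C57BL/6J, whereas the series text gives Clec4f-Cre/DTR. Clec4f is a Kupffer cell gene, so the Cre line directs the toxin receptor to those cells. H3K27ac was also measured in bone marrow-derived macrophages (BMDM) of C57BL/6J mice, cultured for 4 days, with or without 24 h of the Notch ligand DLL4. Peaks of 3 factors were deposited: the nuclear receptor LXR in Clec4f-cre Kupffer cells and in C57BL/6J BMDM cultured for 7 days with 18 h of the LXR agonist GW3965, and SMAD4 and RBPJ in nuclei of Clec4f-cre Kupffer cells and in untreated C57BL/6J BMDM cultured for 4 days. Ages and the number of animals per library are not given in the sources used here, and the labels do not tell whether the 2 libraries per group had different animals or cultures behind them. The p-values therefore cover the spread from library to library, which could be technical alone.

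Lysosomal hydrolases work at low pH, which the V-ATPase maintains by pumping protons across the lysosomal membrane. LAMP proteins line that membrane, and cathepsins, glycosidases, sulfatases and lipases degrade proteins, glycans and lipids delivered by phagocytosis, endocytosis and autophagy. Kupffer cells are known for clearing particles, aged blood cells and lipoproteins from the blood, all of which end in the lysosome. Many lysosome genes carry in their promoters the CLEAR element, an E-box bound by the transcription factors TFEB and TFE3.

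RefSeq promoter windows (build GRCm38.p6, from 250 bases before to 50 bases after a start) were found for 44 of the 50 genes. The letters TCACGTGA, the core of the CLEAR element, stood in a window of 6 of these 44 genes (13.6%), against 304 of 27025 genes in the whole reference (1.12%). The shorter E-box CACGTG, which lies inside the longer motif, stood in 15 of the 44 (34.1%), against 8.09% of all genes. Both motifs read the same on either strand, and a match is a description of these letters, not a measured site. The 5 windows below are examples with a match, picked after the H3K27ac values were seen; Gla and Cln3 also hold 2 matches, and Lipa, Acp5 and Tpp1, with large differences, hold none. Capitals mark the motif, and each window is written 5′ to 3′ on the gene's own strand. Ctsd (chr7:142387778-142388077, minus strand) and Mcoln1 (chr8:3500269-3500568, plus strand) hold 1 copy of the longer motif and a further E-box. Ctsa (chr2:164833523-164833822, plus strand) holds 2 copies of the longer motif close to the start, Lamp1 (chr8:13158911-13159210, plus strand) has 4 E-boxes, and Lgmn (chr12:102439043-102439342, minus strand) has 1, while a second Lgmn window has none. The Lgmn window printed here belongs to a start downstream of the one from which the distances of its regions were counted.
Ctsd: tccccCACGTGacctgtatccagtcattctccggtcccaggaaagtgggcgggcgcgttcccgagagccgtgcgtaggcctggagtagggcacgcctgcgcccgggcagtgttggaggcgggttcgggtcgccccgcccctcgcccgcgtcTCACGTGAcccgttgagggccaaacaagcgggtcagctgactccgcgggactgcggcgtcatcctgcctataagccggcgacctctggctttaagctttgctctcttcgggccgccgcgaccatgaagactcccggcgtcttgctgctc
Ctsa: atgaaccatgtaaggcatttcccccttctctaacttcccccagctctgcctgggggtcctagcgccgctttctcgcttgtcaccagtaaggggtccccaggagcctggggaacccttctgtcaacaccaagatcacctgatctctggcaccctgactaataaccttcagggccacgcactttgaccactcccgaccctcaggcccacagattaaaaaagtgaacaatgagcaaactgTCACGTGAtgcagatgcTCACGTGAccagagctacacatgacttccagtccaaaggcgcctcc
Mcoln1: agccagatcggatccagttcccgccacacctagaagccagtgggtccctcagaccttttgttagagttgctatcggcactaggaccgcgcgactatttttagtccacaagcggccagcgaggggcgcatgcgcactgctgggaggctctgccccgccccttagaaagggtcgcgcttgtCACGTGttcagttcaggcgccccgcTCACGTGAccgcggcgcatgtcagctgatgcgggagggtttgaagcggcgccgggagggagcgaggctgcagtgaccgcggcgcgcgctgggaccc
Lamp1: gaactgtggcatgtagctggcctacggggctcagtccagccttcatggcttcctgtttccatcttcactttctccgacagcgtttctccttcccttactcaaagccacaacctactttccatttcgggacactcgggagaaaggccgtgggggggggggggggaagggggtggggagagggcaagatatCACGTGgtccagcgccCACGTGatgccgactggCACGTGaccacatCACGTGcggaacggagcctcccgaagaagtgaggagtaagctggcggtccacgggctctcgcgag
Lgmn: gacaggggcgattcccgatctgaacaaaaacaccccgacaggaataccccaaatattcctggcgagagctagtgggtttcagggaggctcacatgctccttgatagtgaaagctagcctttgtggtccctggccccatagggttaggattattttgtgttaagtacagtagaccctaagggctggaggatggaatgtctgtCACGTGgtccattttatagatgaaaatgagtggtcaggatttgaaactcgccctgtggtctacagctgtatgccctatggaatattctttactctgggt

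A member is called higher or lower where the Benjamini-Hochberg adjusted p of edgeR's quasi-likelihood test, fitted on all genes of the table, is under 0.05 and the fold at least 2. Levels are in CPM, tags relative to a TMM-scaled library total (counts per M), and are summed over a gene's regions unless stated otherwise. Gene sums, promoter sums, distal sums and single regions were fitted separately, each with its own library totals and TMM factors. Their CPM values are therefore not on one scale, and a distal sum can exceed the gene sum. Because genes differ in the number of regions, levels are compared between libraries and never between genes. The first table held 7.37 to 19.5 M tags per library and the second 20.2 to 27.2 M. The defining markers followed the labels: the summed level of 5 Kupffer cell markers (Clec4f, Timd4, Cd5l, Vsig4, Spic) was 1140 and 1322 CPM in Kupffer cells, 173.9 and 181.6 in RLM and 54.46 and 42.76 in monocytes. The 6 monocyte markers summed to 587.9 and 595.3 CPM in monocytes, 569.1 and 558.9 in RLM and 245.2 and 253.0 in Kupffer cells. Markers of other liver cells differed between the groups as well, each list through few genes: 4 tested hepatocyte genes of 7 listed summed to 48.53 and 51.31 CPM in Kupffer cells, 20.38 to 24.48 in RLM and 17.13 to 18.17 in monocytes, while Serpina1a, Cyp2e1 and Hnf4a did not pass the filter on low values. Ttr made up the hepatocyte difference, with means of 2.336, 6.73 and 37.37 CPM in monocytes, RLM and Kupffer cells, while Alb (-0.08) and Apoa1 (-0.17) were not called and Apob was lower (-2.28) in Kupffer cells against RLM. The 6 endothelial markers summed to 193.0 and 196.9 CPM in Kupffer cells, 105.3 to 113.6 in RLM and 80.45 to 90.25 in monocytes. Stab2 (2.47) was the endothelial gene called higher in Kupffer cells against RLM and Kdr (-1.18) was called lower. The part of those cells in the differences below was not tested. In bulk libraries a change in cell makeup and a change of acetylation per cell cannot be told apart.

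The first comparison sets RLM, taken from the liver 24 h after toxin, against untreated blood monocytes. These groups differ in tissue, mouse line and toxin at once, and the parts of the 3 cannot be told apart. Of the 48 measured lysosome genes, 11 were higher in RLM over monocytes and none were lower, where 6.2% of 16749 genes were higher and 5.8% were lower. The log2 difference was above 0 in 36 of 48, with a median of 0.40 against 0.07 for all genes. The higher genes were 4 of 12 proteases (Ctsb, Ctsd, Lgmn, Tpp1), 2 of 12 glycosidases (Manba, Naglu), 1 of 3 measured sulfatases and sulfamidases (Sgsh), 1 of 8 lipid genes (Lipa), both phosphatases (Acp2, Acp5) and 1 of 7 measured membrane proteins (Lamp1). None of the 4 V-ATPase genes passed. In the deposited region names, 11.5% of the regions of lysosome genes were listed for both RLM and Kupffer cells but not for monocytes, against 7.0% of all regions.

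Lipa, the acid lipase that frees cholesterol and fatty acids from lipoprotein esters, had the largest difference. Its level was 87.69 and 81.63 CPM in monocytes, 317.7 and 308.1 in RLM and 667.7 and 822.6 in Kupffer cells. The 3 groups did not overlap, and each stood above the one before. The log2 difference of RLM against monocytes was 1.89 ± 0.16 (SE, adjusted p = 3.12e-11). All 12 of its regions were higher.

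Ctsd encodes cathepsin D, the main aspartic protease of the lysosome. It measured 96.3 and 85.6 CPM in monocytes, 272.9 and 286.5 in RLM and 524.1 and 627.5 in Kupffer cells. Again no library of a group reached into the next, with a log2 difference of 1.62 ± 0.16 (SE, adjusted p = 6.74e-10) in RLM against monocytes. In 11 of its 12 regions H3K27ac was higher, the exception being the region at the start site, chr7:142386946-142388946, at 27.45 and 27.18 CPM in monocytes and 52.58 and 51.34 in RLM (0.93 ± 0.22). That region spans the promoter window printed above. The largest difference lay 4941 bp upstream in intergenic sequence, chr7:142391811-142393811, where monocytes gave 3.721 and 3.965 CPM and RLM 25.50 and 28.26 (2.80 ± 0.27).

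The phosphatase genes Acp2 (lysosomal acid phosphatase) and Acp5 (tartrate-resistant acid phosphatase, typical of osteoclasts and some macrophages) were higher in RLM by like amounts. Acp2 measured 27.19 and 37.60 CPM in monocytes, 107.6 and 86.61 in RLM and 197.1 and 215.3 in Kupffer cells, a log2 difference of 1.58 ± 0.18 in RLM against monocytes. Acp5 measured 10.40 and 11.07 CPM, 33.97 and 30.84, and 62.12 and 57.61 in the same order, a difference of 1.59 ± 0.22. For both genes monocytes were low, RLM intermediate and Kupffer cells high, with no overlap. At the Acp5 start site (chr9:22129688-22131688) monocytes had 1.075 and 1.735 CPM, RLM 11.04 and 11.28, and Kupffer cells 21.23 and 19.30.

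Sgsh, the sulfamidase of heparan sulfate breakdown, differed from these in its course. Its level was 30.34 and 32.37 CPM in monocytes, 96.66 and 91.66 in RLM and 89.57 and 95.47 in Kupffer cells. RLM and Kupffer cells overlapped, while monocytes lay far below both. The difference was 1.59 ± 0.19 for RLM against monocytes and -0.02 ± 0.18 for Kupffer cells against RLM. Tpp1, the tripeptidyl peptidase lost in a form of neuronal ceroid lipofuscinosis, measured 25.74 and 20.79 CPM in monocytes, 66.09 and 58.18 in RLM, and 121.5 and 126.0 in Kupffer cells. It was higher by 1.42 ± 0.19 in RLM, and all 6 of its regions were called, the largest difference being in an exon of the neighbouring gene Dchs1, 10741 bp upstream.

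**Figure D1:**
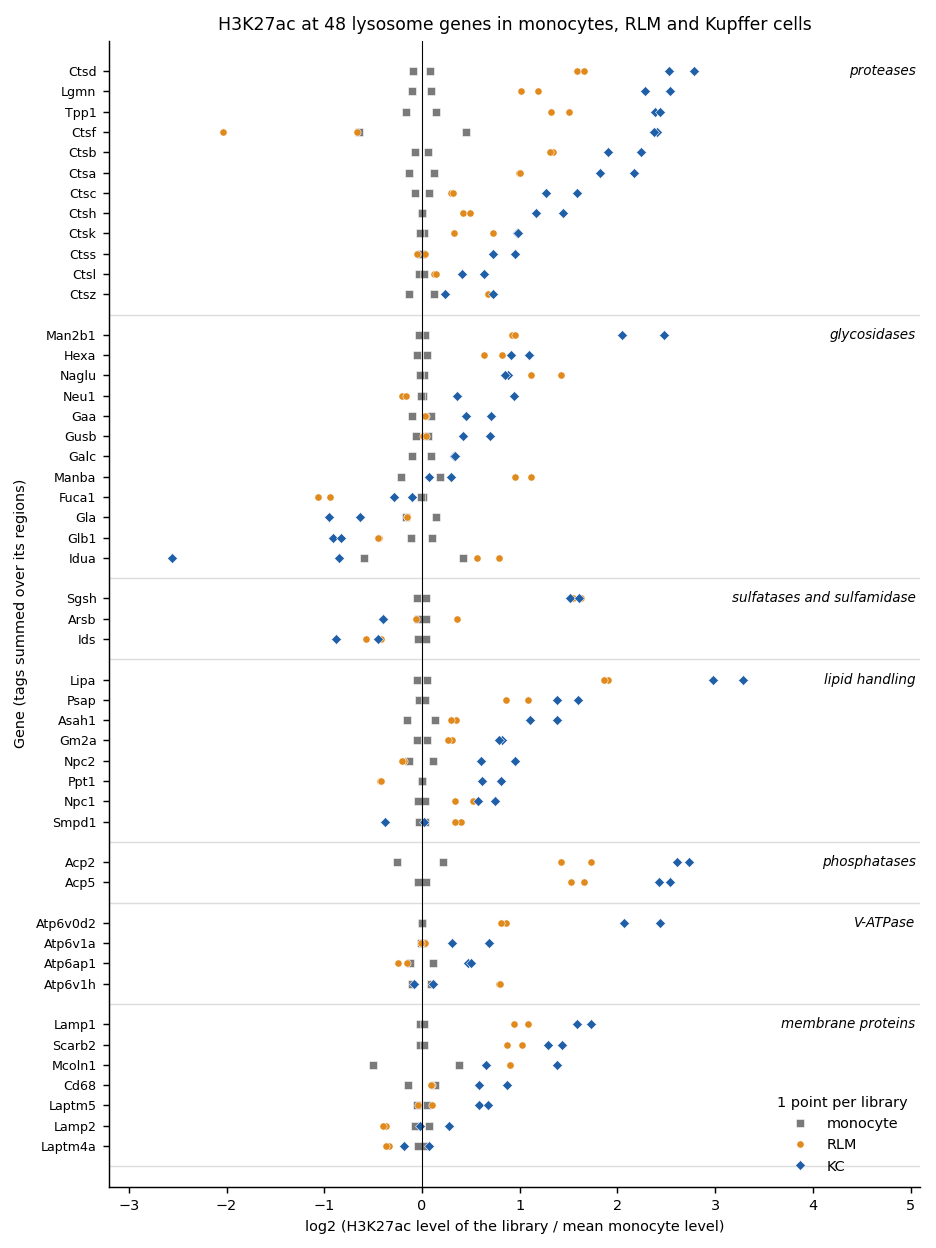
H3K27ac level of each library at the 48 measured lysosome genes, as log2 of its ratio to the mean monocyte level of the gene, grouped by role and ordered by the Kupffer cell difference. Squares are monocytes, circles RLM and diamonds Kupffer cells, 1 point per library; Lipa, Ctsd, Lgmn, Acp2 and Tpp1 show 3 separate groups, while Sgsh shows RLM and Kupffer cells together.

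The second comparison sets resident Kupffer cells against RLM. The Kupffer cells are untreated cells and no later time point of RLM. Cell population, toxin and, by the sample labels, mouse line differ at once between these groups, and their parts cannot be told apart. Of 48 genes 10 were higher and 1 were lower, where 14.6% of all genes were higher and 12.8% were lower. The median log2 difference of the members was 0.55 against -0.07 for all genes, and 37 of 48 were above 0. This comparison depended on the scaling. With library totals in place of TMM factors, which moved the median of all genes by -0.33, 3 members were higher (Atp6v0d2, Ctsf, Man2b1) and 3 lower (Atp6v1h, Idua, Manba), and the higher share of all calls went from 53.3% to 30.5%, a change that shifts all genes alike. It also rested on the Kupffer cell libraries: without the second of them 7 members were higher, and without the first 16. The higher genes were 5 proteases (Ctsa, Ctsc, Ctsd, Ctsf, Lgmn), the glycosidase Man2b1, the lipid genes Lipa and Ppt1, the phosphatase Acp2 and the V-ATPase subunit Atp6v0d2. No membrane protein and no sulfatase passed. RLM libraries enter this comparison and the one before, so the same libraries set both values.

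Ctsf, the cysteine protease cathepsin F, had the largest difference but few tags. Its only region lies at the start site (chr19:4854177-4856177), and the gene sum was 1.108 and 2.366 CPM in monocytes, 0.4246 and 1.098 in RLM, and 9.197 and 9.028 in Kupffer cells, from 3 and 10 tags in RLM and 65 and 139 in Kupffer cells. Kupffer cells were high, and both RLM libraries lay below both monocyte libraries, at few tags. The log2 difference against RLM was 3.50 ± 0.56 (SE, adjusted p = 8.67e-07). It ranged from 3.05 to 4.42 when single libraries were left out.

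Lgmn encodes legumain, the asparaginyl endopeptidase that processes cathepsins. Summed over 26 regions it measured 173.3 and 198.7 CPM in monocytes, 422.9 and 374.4 in RLM and 905.6 and 1077 in Kupffer cells, and no groups overlapped. The difference of Kupffer cells against RLM was 1.32 ± 0.15, with 17 of 26 regions higher and none lower. The start site (chr12:102438805-102440805) differed between RLM and monocytes, with 6.202 and 9.664 CPM in monocytes, 46.53 and 41.27 in RLM and 62.74 and 78.68 in Kupffer cells. A region in the first intron, 6863 bp into the gene (chr12:102431950-102433950), gave 0.7442 and 1.404 CPM in monocytes, 1.972 and 0.6099 in RLM, and 25.88 and 25.29 in Kupffer cells. There RLM and monocytes overlapped and Kupffer cells stood alone, a log2 difference of 4.37 ± 0.43 against RLM.

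Against RLM, Lipa and Ctsd were higher in Kupffer cells by 1.25 ± 0.16 and 1.04 ± 0.16. For Lipa the start site (chr19:34526519-34528519) did not pass, at 37.07 and 37.41 CPM in RLM against 39.48 and 49.87 in Kupffer cells (0.27 ± 0.22). The region 2762 bp downstream (chr19:34523712-34525712, intron) had 1.488 and 1.652 CPM in monocytes, 10.52 and 10.98 in RLM and 54.87 and 63.31 in Kupffer cells (2.46 ± 0.25 against RLM). In this gene the start site missed the 2-fold limit and the intron passed it. With library totals as the scaling, Lipa (0.92), Lgmn (0.99) and Ppt1 (0.81) kept their direction against RLM but fell below the 2-fold limit.

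Atp6v0d2, a V-ATPase subunit known from osteoclasts and macrophages, measured 70.65 and 70.22 CPM in monocytes, 127.8 and 123.5 in RLM and 296.1 and 381.1 in Kupffer cells (1.43 ± 0.16 against RLM). Of its 13 regions 10 were higher, the largest being 50389 bp from the start in intergenic sequence (chr4:19871177-19873177), at 2.892 and 3.761 CPM in RLM and 13.84 and 19.89 in Kupffer cells. Man2b1, lysosomal alpha-mannosidase, had 29.49 and 28.31 CPM in monocytes, 54.91 and 55.87 in RLM and 119.0 and 161.1 in Kupffer cells (1.34 ± 0.18). For both genes monocytes were lowest, RLM between and Kupffer cells highest, without overlap. Ppt1, palmitoyl-protein thioesterase, took another course, with 64.43 and 64.48 CPM in monocytes, 47.83 and 48.08 in RLM and 98.62 and 112.5 in Kupffer cells: RLM were lowest (-0.43 ± 0.18 against monocytes, not called) and Kupffer cells highest (1.14 ± 0.18 against RLM).

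Idua, the iduronidase, was the 1 member lower in Kupffer cells than in RLM, and its value rests on very few tags. Its single region lies 8329 bp from its start in an intron of the neighbouring gene Dgkq, and held 8 and 12 tags in RLM and 3 and 2 in Kupffer cells. The log2 difference was -2.34 ± 1.00 (SE, adjusted p = 0.0364), and it did not pass in DESeq2, without either RLM library or without the second Kupffer cell library. Manba, beta-mannosidase, had 24.88 and 18.93 CPM in monocytes, 42.46 and 47.31 in RLM and 26.88 and 23.06 in Kupffer cells. Its difference was 1.04 ± 0.21 for RLM against monocytes and -0.85 ± 0.21 for Kupffer cells against RLM, under the 2-fold limit. No member was called in opposite directions in the 2 comparisons, but with library totals Manba was, higher in RLM than in monocytes and lower in Kupffer cells than in RLM.

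In the third comparison, Kupffer cells against monocytes, 20 of 48 genes were higher and none were lower, where 18.4% of all genes were higher and 14.4% were lower. The median was 0.80 against -0.08 for all genes. Both groups are untreated but differ in tissue and, by the series text, in mouse line, and these parts cannot be told apart. With library totals 17 members were higher and 2 lower (Gla, Glb1), the median of all genes moved by -0.29, and the higher share of all calls went from 56.1% to 38.8%. By role, 8 of 12 proteases were higher, 2 of 12 glycosidases, 1 of 3 sulfatases and sulfamidases, 3 of 8 lipid genes, both phosphatases, 1 of 4 V-ATPase genes and 3 of 7 membrane proteins. The largest differences were those of Lipa (3.14 ± 0.16), Acp2 (2.67 ± 0.17), Ctsd (2.66 ± 0.16), Acp5 (2.48 ± 0.22), Lgmn (2.41 ± 0.16) and Tpp1 (2.41 ± 0.19), whose values in each library stand above. Asah1, Ctsh, Hexa, Mcoln1, Psap and Scarb2 passed in this comparison and in neither of the others. The glycosidases had a median of 0.45 and a range of -1.66 to 2.28, with Hexa (1.01 ± 0.16) and Man2b1 (2.28 ± 0.18) as the called genes. The remaining 24 members were called in none of the 3 liver comparisons, among them Lamp2, Npc1, Npc2, Gaa, Galc and Gusb. Gene groups defined by the 3 comparisons share libraries, and their overlap is not a separate result.

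Promoter and distal regions were then fitted apart, as sums within 1 kb of the start and from over 3 to 100 kb away. At promoters 12 of 45 measured members were higher in RLM over monocytes and none were lower, where 7.23% of genes were higher and 6.06% lower. In Kupffer cells over RLM 6 of 45 promoters were higher and none were lower, near the 12.2% of all promoters that were higher (7.12% were lower). Against monocytes, 21 of 45 Kupffer cell promoters were higher and none were lower (background 16.5% and 10.5%). The 2 kinds of sum had separate library totals and TMM factors, so their differences do not share a scale. Distal sums followed another order. In RLM over monocytes 6 of 36 were higher and 1 were lower (background 6.79% and 6.96%), in Kupffer cells over RLM 13 were higher and 5 were lower (18.3% and 23.9%), and in Kupffer cells over monocytes 15 were higher and 2 were lower (22.2% and 21.8%).

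In 33 members with both kinds of sum, 7 were higher at the promoter alone in RLM over monocytes (Ctsb, Lgmn, Lamp1, Manba, Naglu, Psap, Acp5), 3 at distal regions alone (Ctsd, Acp2, Atp6v1a) and 3 at both (Lipa, Sgsh, Tpp1). In Kupffer cells over RLM only the promoters of Psap and Ppt1 were higher by themselves, Lgmn was higher at both, and 11 members were higher at distal regions alone (Ctsc, Ctss, Lamp1, Lamp2, Lipa, Neu1, Scarb2, Tpp1, Acp5, Atp6v1a, Laptm4a). Over all 7895 genes with both sums, the shares higher at the promoter alone, at distal regions alone and at both were 6.71%, 5.22% and 1.62% in RLM over monocytes and 7.31%, 14.8% and 6.68% in Kupffer cells over RLM. With library totals the count of distal sums higher in Kupffer cells over RLM was 1. The difference between the promoter and the distal sum of a gene was not tested. Scarb2, a lysosomal membrane receptor chosen here after its values were seen, is an example of a distal difference. Its promoter sum was 350.5 and 393.5 CPM in RLM and 329.8 and 377.1 in Kupffer cells, which overlapped (-0.07 ± 0.17). Its distal sum was 102.9 and 84.30 CPM in monocytes, 171.5 and 157.7 in RLM, and 589.0 and 705.9 in Kupffer cells (1.98 ± 0.21). Psap, the precursor of the saposins and also named after its values were seen, was the reverse, with a promoter sum of 57.73 and 46.17 CPM in monocytes, 161.5 and 144.4 in RLM and 279.6 and 364.2 in Kupffer cells, and distal sums that differed by 0.07 ± 0.20 between Kupffer cells and RLM.

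**Figure D2:**
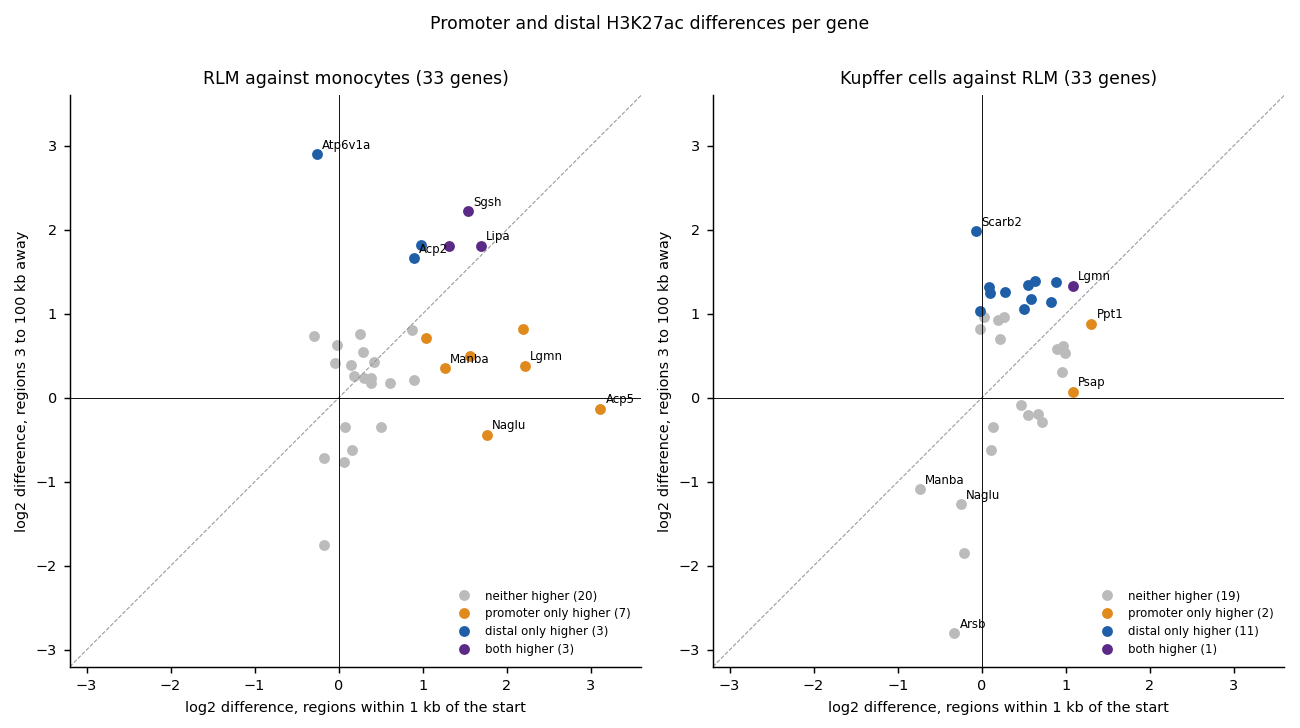
Log2 difference of H3K27ac at regions within 1 kb of the start (horizontal) and 3 to 100 kb away (vertical) for 33 lysosome genes with both sums, RLM against monocytes on the left and Kupffer cells against RLM on the right. Each point is a gene, coloured by which sum was called higher: 7 promoter only and 3 distal only on the left, 2 and 11 on the right. The 2 axes were scaled in separate fits.

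The 5 distal sums lower in Kupffer cells than in RLM belonged to Arsb, Idua, Manba, Naglu and Smpd1, all at low levels. Arsb had 7.544 and 3.817 CPM in RLM and 0.4168 and 0.9654 in Kupffer cells at distal regions. Naglu, which degrades heparan sulfate, was called both ways against monocytes: its promoter sum was higher in Kupffer cells (1.51 ± 0.24) and its distal sum lower (-1.71 ± 0.39).

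Among single regions, 87 of 368 tested regions of lysosome genes were higher in RLM over monocytes and 13 were lower, where 8.62% of all regions were higher and 9.22% lower. In Kupffer cells over RLM 148 were higher and 20 were lower (background 22.4% and 13.6%), and in Kupffer cells over monocytes 185 were higher and 16 were lower (24.9% and 17.5%). Regions of a gene can overlap, so these are not independent counts. Higher regions in Kupffer cells over RLM occurred at genes whose sums were not called. At Atp6v1a, the catalytic V-ATPase subunit whose promoter holds the longer motif, the region at the start site averaged 142.6 CPM in monocytes, 132.2 in RLM and 111.3 in Kupffer cells. A region 18950 bp into that gene (chr16:44119309-44121309) averaged 1.198, 22.75 and 50.81 CPM in the same groups and was called higher in both. At Laptm4a, a transmembrane protein of late endosomes and lysosomes, an intergenic region at -56647 bp from the start (chr12:8863660-8865660) went the other way, with means of 35.58 CPM in monocytes, 4.477 in RLM and 1.213 in Kupffer cells, lower in both comparisons. Of 13 Laptm4a regions, 4 were higher and 4 lower in Kupffer cells against RLM. Its distal sum was lower in RLM than in monocytes (-1.75 ± 0.21) and higher in Kupffer cells than in RLM (1.24 ± 0.21). Atp6v1a and Laptm4a were picked after their values were seen.

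**Figure D3:**
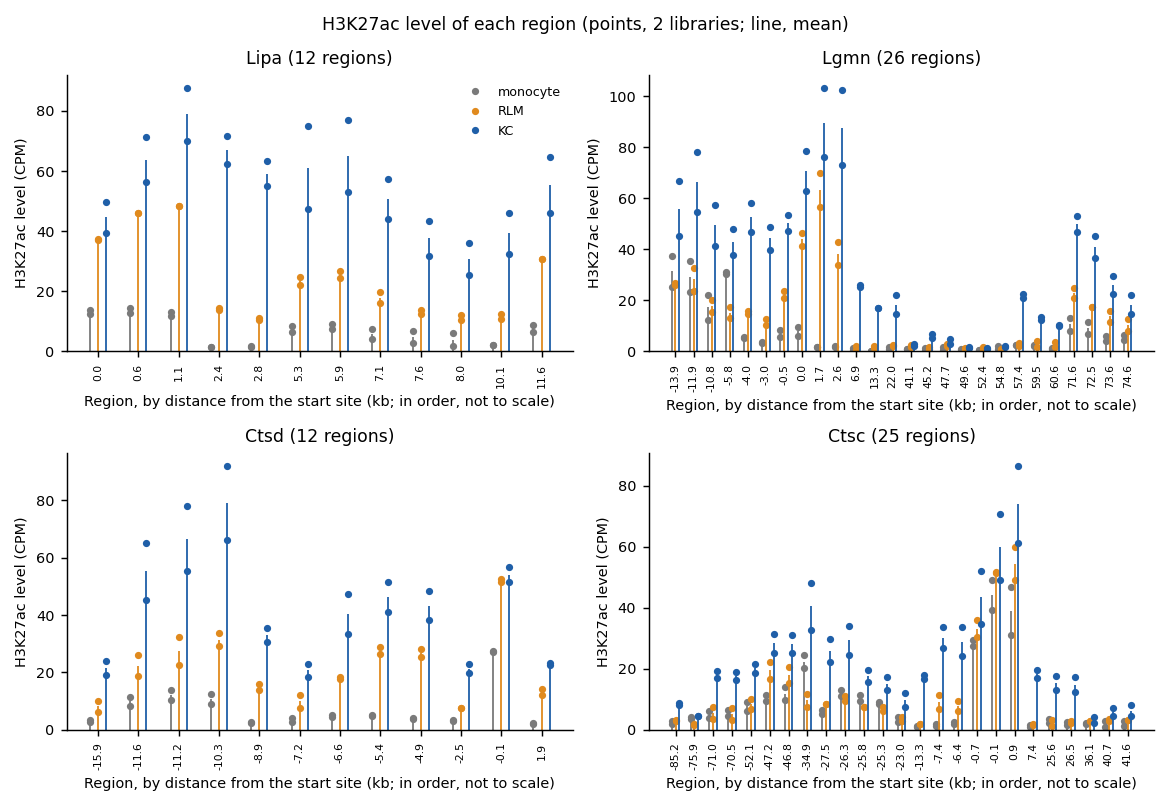
H3K27ac level in CPM (vertical) of each measured region of Lipa, Lgmn, Ctsd and Ctsc, ordered along the gene by distance from the start site in kb. Points are the 2 libraries of a group and lines their mean; at Lipa and Ctsd the region at the start is close between RLM and Kupffer cells and the regions around it are higher in Kupffer cells, and at Ctsc, a gene called in Kupffer cells over RLM, the same holds for most regions away from the start.

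The counts were also taken by promoter motif, as a description without a test. Of 13 measured genes with CACGTG in the window, 5 were higher in RLM over monocytes, 4 in Kupffer cells over RLM and 7 in Kupffer cells over monocytes. Of 29 with a window but no match, 5, 5 and 9 were higher. The medians of the genes with and without a match were 0.90 and 0.31 in the first comparison, 0.50 and 0.54 in the second and 1.05 and 0.71 in the third. The 5 measured genes with the longer motif include Ctsa and Ctsd, both higher in Kupffer cells against RLM, and Gla and Atp6v1a, which were called in no liver comparison. Lipa and Acp5, with differences among the largest, had no E-box in these windows, which says only that the letters are not there.

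With DLL4, Acp5 and Ctsh were the lysosome genes called at the 2-fold limit. Of 48 tested members 2 had risen over untreated BMDM and none had fallen, where 2.6% of 16421 genes had risen and 1.28% had fallen. The median difference was 0.09 against -0.01 for all genes. By adjusted p alone 18 members (37.5%) were higher and 5 (10.4%) lower, against 15.4% and 10.9% of all genes. Without a fold limit, genes with more tags pass at smaller differences, and lysosome genes had a median of 6 regions against 3 for all genes. The part of this in the shares was not tested. By DESeq2 the same 2 were called. With library totals they were also the 2 called members, while the higher share of all calls went from 66.9% to 54.4%. The leading gene was Acp5, at 11.10 and 13.76 CPM in untreated cells and 49.96 and 47.33 with DLL4, a difference of 1.96 ± 0.14 (SE, adjusted p = 7.21e-20). All 4 of its regions rose, and at the start site (chr9:22130369-22132369) the level went from 1.895 and 2.280 CPM to 19.15 and 15.69 (3.05 ± 0.22). The treated libraries stood far above the untreated ones. Markers of osteoclasts or fused macrophages (Ocstamp, Dcstamp, Calcr, Oscar), with which Acp5 is shared, summed to 62.45 and 61.58 CPM without DLL4 and 216.5 and 218.0 with it. Of these, Ocstamp alone was called (2.24). Dcstamp (0.48), Oscar (0.57) and Calcr (-0.61) were not. Their part in the Acp5 result was not tested.

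Ctsh, cathepsin H, was the other member that rose. Its level was 128.1 and 143.2 CPM in untreated BMDM and 326.4 and 316.2 with DLL4 (1.24 ± 0.07, adjusted p = 3.31e-27). Of its 16 regions 9 rose, the largest difference being at a region within an intron of the neighbouring gene Rasgrf1 (chr9:90012474-90014474), from 1.312 and 1.303 CPM to 6.787 and 5.611 (2.24 ± 0.33). The region nearest the start gave 31.11 and 36.70 CPM untreated and 68.43 and 66.86 treated, a difference of 0.99 ± 0.09 that missed the 2-fold limit. Below that limit 0.82 ± 0.07 at Acp2, 0.66 ± 0.06 at Ctsz, 0.65 ± 0.07 at Scarb2 and 0.63 ± 0.06 at Psap were the next differences, all with small adjusted p. Lamp2 (-0.38 ± 0.09), Ctsk (-0.35 ± 0.07) and Smpd1 (-0.50 ± 0.24) were at the lower end. In single regions 29 of 444 had risen and 7 had fallen, near the background of 4.81% and 2.43%. They included 4 at Ctsc, all intergenic and upstream, and 2 fallen regions at Lamp2.

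**Figure D4:**
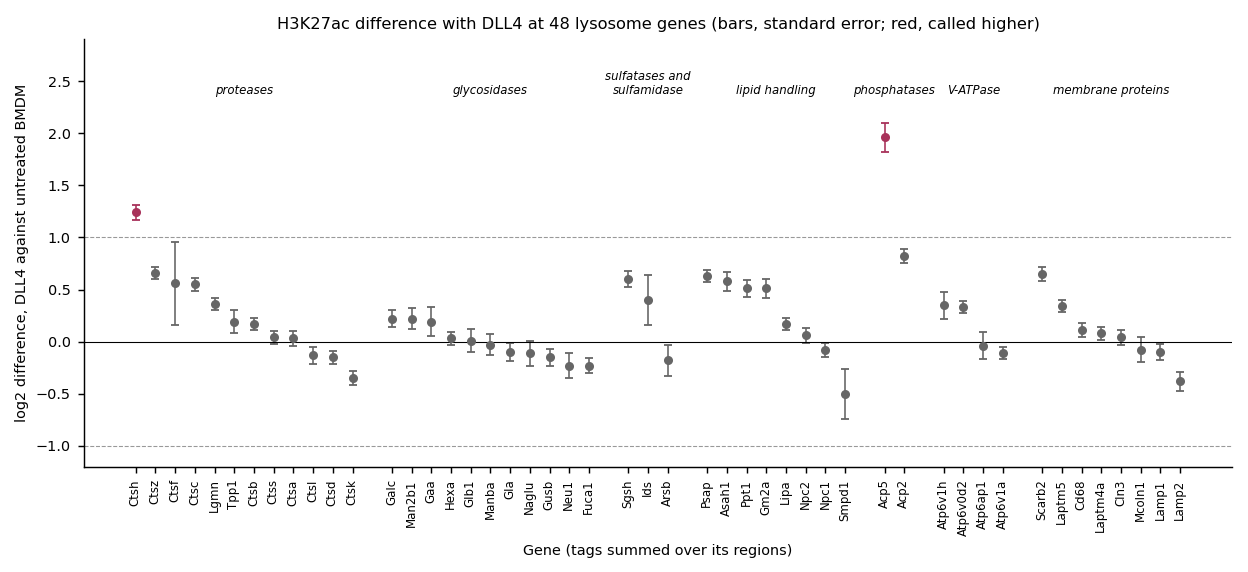
Log2 difference of H3K27ac in BMDM with DLL4 against untreated BMDM for the 48 tested lysosome genes, grouped by role, with standard errors as bars and dashed lines at 2-fold. Acp5 (1.96) and Ctsh (1.24) are called higher, and the other 46 lie between the lines.

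Peaks of all 3 factors were common at lysosome genes. A gene counts as bound where a peak of each of the 2 libraries overlapped one of its regions by at least 1 bp. LXR was bound at 44 of 49 genes in Kupffer cells (background over 18476 genes 62.2%) and at 42 in agonist-treated BMDM (53.1%), SMAD4 at 43 in Kupffer cell nuclei (55.9%) and 42 in BMDM (49.0%), and RBPJ at 31 in Kupffer cell nuclei (27.8%) and all 49 in BMDM (85.2%). Lysosome genes had a median of 6 regions against 3 for all genes, and a gene with more regions can meet a peak more often, so shares per region are given too. Of the 373 regions measured in liver cells and monocytes, 53.6% held an LXR peak in Kupffer cells against 41.8% of all regions, 50.9% a SMAD4 peak against 36.7%, and 15.5% an RBPJ peak against 11.3%. Of 459 regions in BMDM the shares were 43.4% for LXR against 31.1%, 41.8% for SMAD4 against 28.7%, and 74.7% for RBPJ against 70.6%. Peaks of all 3 factors lay in 49 regions of 20 genes in Kupffer cells (13.1% against 8.76%). In BMDM they lay in 121 regions of 34 genes (26.4% against 17.2%). Psap alone held 20 of those 121. The 3 factors were not measured in the same preparation. In BMDM, LXR was measured with agonist at 7 days, and SMAD4 and RBPJ without it at 4 days. For Kupffer cells, SMAD4 and RBPJ were measured in nuclei and the LXR samples are not labelled as nuclei. Shared regions therefore do not show binding at one time in one cell state. Peaks were called per library with depths of 11.1 to 56.3 M tags, and the RBPJ libraries of Kupffer cell nuclei held 0.76% and 1.01% of their tags in peaks, against 24.49% and 25.10% in BMDM, so an absent RBPJ peak in nuclei does not show absent binding. Per the file headers, the input of the second LXR Kupffer cell library carries a NASH diet in its name, and for nuclei the same input was used with SMAD4 library 2 and RBPJ library 1.

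**Figure D5:**
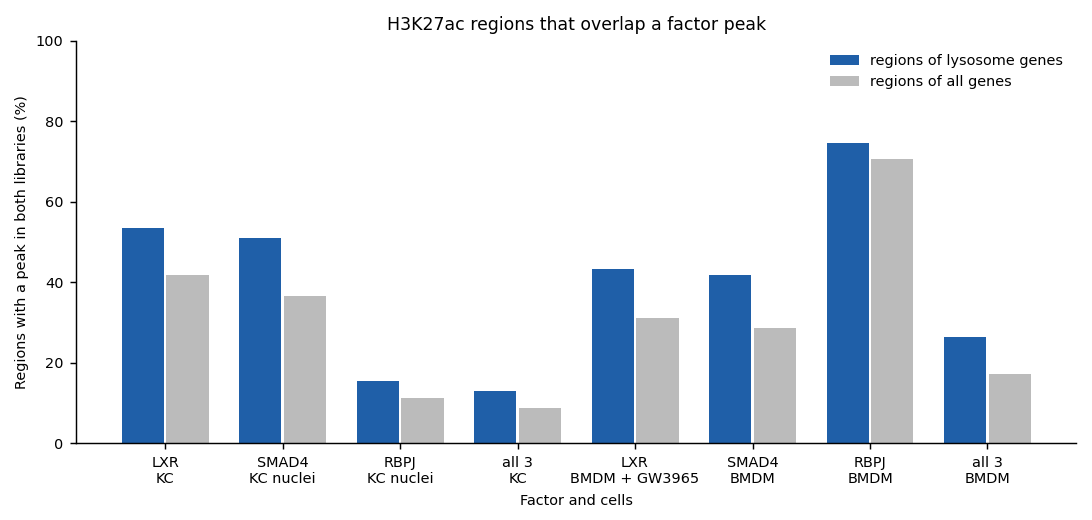
Share of H3K27ac regions in percent that overlap a factor peak in both libraries of a group, for regions of lysosome genes (blue) and of all genes (grey), by factor and cells. Kupffer cell factors are counted on the table of liver cells and BMDM factors on that of BMDM; the blue bar is the higher in each pair, 74.7% against 70.6% for RBPJ in BMDM and 50.9% against 36.7% for SMAD4 in Kupffer cell nuclei.

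The strongest peaks fell at few genes. At Ctsd one upstream site held peaks in several groups. Its LXR peak in agonist-treated BMDM (chr7:142398098-142398248) had 486.0 and 621.3 tags per 10 M, the highest among lysosome genes. The overlapping LXR peak in Kupffer cells had 191.0 and 66.2 tags per 10 M, and that of RBPJ in BMDM 221.1 and 201.3. These values are the authors' own normalized tag counts, and differences between cells were not tested. Among LXR peaks in Kupffer cells Ctsd, Lgmn (199.5 and 59.7, different peaks in the 2 libraries) and Ctsh (156.4 and 70.5) led. In the H3K27ac data, the region over this site (chr7:142397168-142399168) averaged 10.83 CPM in monocytes, 31.35 in RLM and 79.13 in Kupffer cells, and was called higher in both comparisons.

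For SMAD4 the leading gene was Ctss, which encodes cathepsin S, the protease that trims the invariant chain of class II molecules. Its strongest peak had 167.4 and 227.3 tags per 10 M in Kupffer cell nuclei (chr3:95523795-95523943) and 408.2 and 277.2 in BMDM. Lgmn and Ctsh followed in nuclei, at 107.7 and 167.4 and at 123.0 and 138.0. For RBPJ in nuclei the highest were Ctsh with 17.5 and 13.2 tags per 10 M, Gm2a with 13.6 and 13.8, and Psap with 12.7 and 14.4. In BMDM, where the RBPJ libraries held far more of their tags in peaks, Cd68 led with 260.9 and 271.1. Some genes were bound in both libraries of one cell type and in neither of the other: for LXR Mcoln1 in Kupffer cells, for SMAD4 Ctsf and Ids in Kupffer cell nuclei, and for RBPJ 10 genes in BMDM. The shares of all genes were 6.51%, 5.9% and 34.4%, and the RBPJ lists of nuclei are the short ones. The SMAD4 peaks of Ctsf do not overlap its region in the liver table, and count through a region of the BMDM table.

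Called regions were then set beside the peaks, as a description without a test. Of the 148 regions higher in Kupffer cells than in RLM, 59.5% held an LXR peak, against 55.0% of the 200 that were not called. For all genes the shares were 65.5% and 42.4%. With SMAD4 the lysosome shares were 52.7% and 56.0%, and those of all genes 54.1% and 38.0%. The 20 lower lysosome regions held 2 LXR peaks and no SMAD4 or RBPJ peak of Kupffer cells, where 13.7%, 13.8% and 3.91% of all lower regions held them. In BMDM 75.9% of the 29 regions risen with DLL4 held an RBPJ peak of untreated cells, against 75.0% of those not called, and 76.6% of all risen regions.

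Genes of the same pathway outside the 50 were counted from a separate list. Of 63 such genes tested, 4 were higher in RLM over monocytes and none were lower, 11 were higher and 3 were lower in Kupffer cells over RLM, and 16 were higher and 3 were lower in Kupffer cells over monocytes. With DLL4 1 was higher, Plbd1 (1.14 ± 0.10). Shares of all genes higher were 6.2%, 14.6%, 18.4% and 2.6% in these comparisons, so the first, second and last counts of higher genes were near the background. In the 3 liver comparisons 5.8%, 12.8% and 14.4% of all genes were lower. The genes named next were chosen after their values were seen. Among 18 other hydrolases and cofactors Pla2g15, the lysosomal phospholipase, stood at 29.49 and 32.79 CPM in monocytes, 125.8 and 107.1 in RLM and 281.6 and 385.3 in Kupffer cells, and was called in all 3 liver comparisons. Ifi30, a thiol reductase of antigen processing, was higher by 1.96 ± 0.16 in Kupffer cells against RLM. Among 14 regulators at the lysosome, Mitf, a relative of TFEB, measured 157.7 and 171.7 CPM in monocytes, 155.3 and 161.1 in RLM and 477.7 and 503.0 in Kupffer cells: monocytes and RLM overlapped and Kupffer cells stood above (1.63 ± 0.16). Tfec of the same family was higher by 1.29 ± 0.17. Tfeb differed by 0.79 ± 0.16 and Tfe3 by 0.20 ± 0.17, neither passing. Cd63, a tetraspanin of late endosomes, was called in both directions, higher in RLM than in monocytes (1.90 ± 0.33) and lower in Kupffer cells than in RLM (-3.09 ± 0.38), at levels of 1.624 to 18.54 CPM. Tpcn1, a channel of endosomes and lysosomes, was lower in Kupffer cells than in RLM (-1.01 ± 0.20). None of the 7 sorting genes was called higher in RLM against monocytes or in Kupffer cells against RLM, and Sort1, a sorting receptor, was lower in the latter (-1.74 ± 0.26).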

How the data were processed

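Per the submitters' processing notes, reads were handled with Bowtie2 and HOMER on build mm10; versions are not given in the sources used here. The deposited tables hold raw tag counts per 2000 bp region, which the authors annotated to the nearest start site. Peak files give, per the file headers, the authors' tag signal normalized to 10 M tags, a peak score and a fold ratio over input; peaks passed an FDR of 0.001 and 4-fold over input and over the local 10000 bp. Counts of regions within 100 kb were summed per gene (also within 1 kb, and from over 3 to 100 kb) and tested with edgeR 4.0.16 in R 4.3.3 (TMM, low-count filter, quasi-likelihood test, 2 libraries per group), checked on simulated data with 200 changed genes. DESeq2 1.42.0 and other settings were alternatives. More than 50% of regions overlap a neighbour (55.17% and 50.85%), so tags can count more than once. Regions without a gene name held 0.04117% and 0.01207% of tags. A peak counted with at least 1 bp of overlap. The members and gene lists were chosen with earlier results of these data known. By rule, up to 6 called members per comparison and direction, their start-site and most changed regions, and the 3 genes with the strongest peaks per group were named; all other named genes and regions were chosen after their values were seen. Replicate numbers did not pair the libraries. Promoter sequences are from RefSeq (GRCm38.p6).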

Additional observations from a re-analysis of the deposited data

How the results depend on the processing

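Among 288 alternative counts, 257 stayed within 1.5 times of the reported count and 31 did not, and for the named genes 241 alternatives kept the call, 7 lost it and none reversed. With library totals 3 members were higher and 3 lower in Kupffer cells against RLM, 2 were lower against monocytes, 1 distal sum was higher against RLM, 6 distal sums were lower against monocytes and 1 promoter was higher with DLL4. By DESeq2 none was lower in Kupffer cells against RLM, and 2 distal sums were. In RLM against monocytes 1 member was lower with no low-count filter, with regions up to 20 kb or with overlapping regions removed. The cause was not tested. Leaving out single libraries gave 0 to 2 members lower in RLM against monocytes, 7 to 16 higher and 0 to 1 lower in Kupffer cells against RLM, 3 to 9 promoters higher, 2 to 5 distal sums lower and 9 to 21 regions lower in that comparison, 1 to 2 distal sums lower in Kupffer cells against monocytes, and 0 to 1 lower with DLL4. The alternatives for promoter sums, distal sums and regions were chosen after seeing the data. Same-numbered libraries did not deviate together (correlations of -0.0284, 0.0591, -0.0326 and 0.00978). With the replicate block 11, 11, 20 and 2 members were higher and 0, 1, 0 and 0 lower. With 2 libraries a group and 7.37 M tags in the shallowest, low regions such as that of Idua were poorly measured.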
